A study of Rattus norvegicus with 12 samples.

Results

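A set of 10 genes that mark macrophages filled with lipid was examined in the kidneys of rats with renal fibrosis, namely Gpnmb, Trem2, Cd68, Lpl, Olr1, Msr1, Cd36, Fabp4, Fabp5 and Atp6v0d2. Of them, 9 had 1 entry in each of the 2 deposited tables, which hold 22132 and 32623 entries for 20792 and 26976 symbols. No entry of either table bears the symbol Cd36, and it was not analysed here. The genes were selected on the FPKM changes of Gpnmb, Lpl and Cd68, already known to be larger in the adenine samples, so all changes of the set in the adenine model, and the comparison of these changes with the UUO model, are described without a test.

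RNA-seq was performed on kidneys of 12 male wild-type Sprague Dawley (SD) rats, 3 in each of 4 groups, which were 8 weeks old when bought. For 3 weeks, rats of the adenine group were gavaged daily with adenine at 220 mg/kg, and rats of the control group received saline. In the UUO (unilateral ureteral obstruction) group the left ureter was ligated, in the sham group it was exposed without ligation, and the rats were then kept for 2 weeks. Expression was deposited as FPKM, fragments scaled by transcript length and library size, with control and adenine rats in one table and sham and UUO rats in a separately made one.

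A macrophage that takes up more lipid than it can clear stores the surplus as cholesteryl ester and triglyceride in droplets and becomes a foam cell. Modified lipoproteins enter through scavenger receptors (Msr1, Olr1, Cd36), fatty acids are released from triglyceride-rich lipoproteins by lipoprotein lipase (Lpl) and carried in the cytosol by fatty acid binding proteins (Fabp4, Fabp5), and the load is degraded in lysosomes, whose membrane carries Cd68 and, in part, Gpnmb. Trem2 is a lipid-sensing surface receptor that signals through the adaptor Tyrobp, and Trem2 and Gpnmb mark the lipid-associated macrophages of fat, artery wall and injured kidney. Atp6v0d2 is a subunit of the proton pump that acidifies lysosomes, known from osteoclasts and macrophages and also from the acid-secreting intercalated cells of the kidney. Several of these genes are active outside macrophages too, Fabp4 and Lpl above all in fat cells and Fabp4 in capillary endothelium.

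The 250 bases before the transcription start of Gpnmb and Cd68 are shown because these genes were among the most raised in both models and because factors of the MiT/TFE family, which drive lysosomal genes, are known to act on Gpnmb through an E-box called the M-box. The sequences are those of RefSeq on GRCr8, Gpnmb at chr4:79340878-79341127 on the plus strand and Cd68 at chr10:54882442-54882691 on the minus strand, and capitals mark the motifs found.
Gpnmb: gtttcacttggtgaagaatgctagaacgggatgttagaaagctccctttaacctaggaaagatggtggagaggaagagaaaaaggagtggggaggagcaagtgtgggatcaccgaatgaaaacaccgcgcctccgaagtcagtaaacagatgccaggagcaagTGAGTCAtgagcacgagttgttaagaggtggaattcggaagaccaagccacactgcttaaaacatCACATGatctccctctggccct
Cd68: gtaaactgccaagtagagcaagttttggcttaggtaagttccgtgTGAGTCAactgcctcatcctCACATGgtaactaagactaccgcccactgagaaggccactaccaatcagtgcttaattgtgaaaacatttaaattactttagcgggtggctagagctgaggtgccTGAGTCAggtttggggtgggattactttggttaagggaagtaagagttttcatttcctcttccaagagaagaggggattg
The letters searched, on both strands, were CACGTG (the E-box that MiT/TFE factors prefer), CATGTG (the M-box core, which reads CACATG on the other strand), TGANTCA (an AP-1 site) and GAGGAAGT (a PU.1 site). Before the Gpnmb start, CACATG lay 22 to 17 bases and TGAGTCA 87 to 81 bases upstream. Cd68 had CACATG at 185 to 180 bases and TGAGTCA at 205 to 199 and at 80 to 74 bases upstream. Among 33469 promoters of the same length, CATGTG was found in 12.09%, TGANTCA in 6.34%, CACGTG in 5.593% and GAGGAAGT in 2.041%. Both motifs are thus common, and a match of letters is not a measured binding site. In the RefSeq window of Olr1, TGAGTCA was found 30 to 24 bases upstream, and the windows of Trem2 and Cd36 held none of the 4 motifs. Of the windows searched, only the 2 shown held the M-box core. Trem2 rose more than Cd68 in both models, and Olr1 did so in the UUO model.

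Before the genes are described, 2 kidneys have to be set apart. The 7 adipocyte markers summed to an FPKM of 498 in adenine rat 1, against 25.5 and 24.6 in adenine rats 2 and 3, and to 200 in UUO rat 1, against 19.6 and 19.2 in UUO rats 2 and 3. Control kidneys held 46.1 to 58.6 and sham kidneys 39.7 to 59.7. Of these sums, Cidec alone made up 20.4, 37.1 and 33.1 in control and 48.8, 30.1 and 30.0 in sham rats. It stood at 4.92 and 4.19 in adenine rats 2 and 3 and at 4.70 and 5.25 in UUO rats 2 and 3. Control rat 1 was the highest control kidney for 6 of the 7 markers. Adipoq, the fat cell hormone adiponectin, had FPKM of 128 in adenine rat 1 and 49.9 in UUO rat 1, and 3.78 to 5.10 in the other 4 kidneys of these groups. Lep, the hormone leptin, was listed at 0 in adenine rats 2 and 3 and at the lowest value of its table, 0.0001, in UUO rats 2 and 3. Levels and changes of Fabp4 and Lpl are therefore also given without these 2 kidneys, and the part of fat tissue in them was not tested otherwise. Proximal tubule markers summed to 1428 to 2012 in control and 1889 to 2107 in sham kidneys. Their sums were lower in the diseased kidneys, at 147 to 403 in the adenine and 272 to 494 in the UUO group. Single markers differed, with log2 fold changes from -4.31 to 2.78 with adenine and from -4.54 to 0.047 with UUO.

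In every adenine kidney, 8 of the 9 genes were higher than in every control kidney, and Atp6v0d2 was not. The same 8 genes reached a log2 fold change of at least 2, where 10.8% of 15029 tested entries reached it and 45% had all 3 adenine samples above all 3 control samples. In the UUO model, 6 of 9 genes lay above sham without overlap and 1 below, and 5 reached a log2 fold change of at least 2. The background was 60% above and 15.7% below without overlap among 15043 tested entries, and 13.5% with a log2 fold change of at least 2. The median log2 fold change of the 9 genes was 4.01 with adenine and 2.81 with UUO, beside 0.30 and 0.62 for all tested entries. Both medians were the value of Fabp4. When adenine rat 1 and UUO rat 1 were left out, they were 3.50 and 1.79, and 8 and 4 genes reached a log2 fold change of at least 2. Gpnmb, Trem2, Cd68 and Olr1 led in both models. Fold changes come from limma on log2(FPKM + 0.1), which understates the change of genes with low FPKM, and each is given with its standard error (SE). An exact permutation test of 3 rats against 3 cannot go below p = 0.1 for a single gene, and the number of reads behind the FPKM values is unknown.

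**Figure D1:**
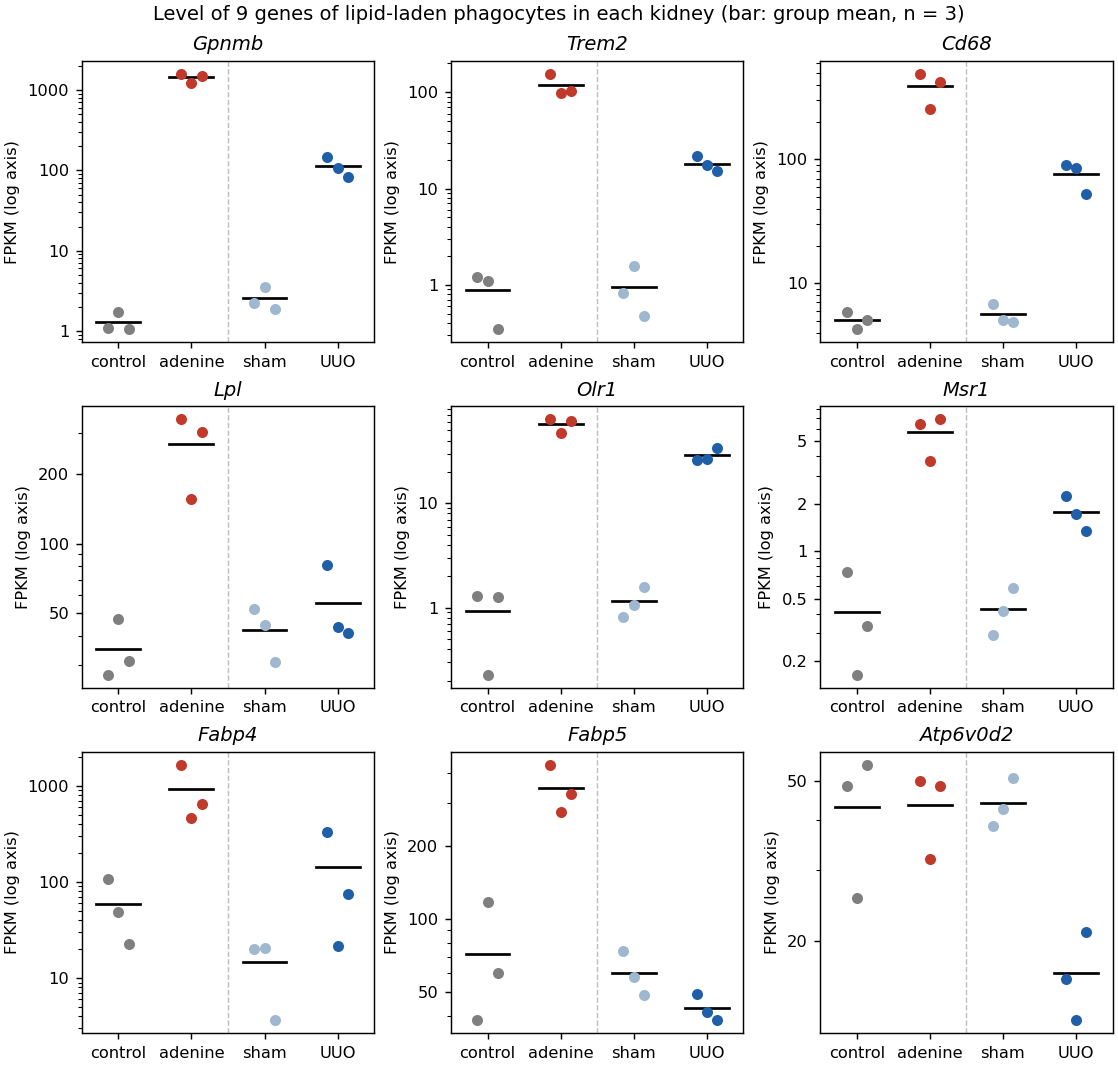
FPKM (log axis, its range differing between panels) of the 9 genes in each of the 12 kidneys, with the group mean as a bar. The adenine samples stand above the control samples in every panel but that of Atp6v0d2, and the dashed line parts the tables, whose levels were normalized separately.

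Gpnmb, a transmembrane glycoprotein that macrophages and osteoclasts make when their lysosomes are loaded, had the largest change. Its FPKM was 1.10, 1.73 and 1.05 in control rats and 1591, 1234 and 1511 in adenine rats. Every adenine kidney lay far above every control kidney, the ratio of the group means was 1118, and the log2 fold change was 10.04 (SE 0.20), with 0 of the 15029 entries above it. By mean FPKM it ranked at place 25 of the table in adenine kidneys. In the other table it was 2.25, 3.53 and 1.89 in sham and 148, 108 and 81.8 in UUO rats. UUO kidneys thus lay far above sham without overlap, with a ratio of the means of 44.0 and a log2 fold change of 5.41 (SE 0.29), and 54 entries had a larger one. The adenine change was larger by 4.63 on the log2 scale (SE 0.35).

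Trem2 was barely detected without disease, with FPKM of 1.21, 1.09 and 0.343 in control and 0.829, 1.56 and 0.472 in sham rats. Adenine rats had 156, 98.9 and 103, and UUO rats had 21.9, 17.4 and 15.3. The diseased kidneys were above their controls without overlap in both tables. The log2 fold change was 7.05 (SE 0.43) with adenine and 4.24 (SE 0.38) with UUO, and Trem2 was an upregulated DEG in the latter (adjusted p = 0.000114 by limma). To count as a DEG, a gene needed an adjusted p under 0.05 (Benjamini-Hochberg, over all tested entries) and a log2 fold change of 2 or more in either direction. Entries were tested if they reached 0.5 FPKM in 3 or more of the 6 samples. Trem2 did not reach it in sham rat 3, so it could enter the UUO test only with the UUO kidneys. The 2 log2 fold changes differed by 2.81 (SE 0.58).

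Cd68, the macrosialin of lysosomes and late endosomes and a common stain for macrophages, was already present in healthy kidneys. FPKM was 5.81, 4.24 and 5.06 in control and 489, 256 and 420 in adenine rats, a log2 fold change of 6.20 (SE 0.25). It was 6.83, 5.10 and 4.89 in sham and 89.6, 84.7 and 52.8 in UUO rats, a log2 fold change of 3.71 (SE 0.23). Neither pair of groups overlapped, and the difference between the models was 2.49 (SE 0.34).

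The scavenger receptors ranked differently. Olr1, the receptor LOX-1 for oxidized low-density lipoprotein, had FPKM of 1.31, 0.227 and 1.28 in control and 64.0, 47.4 and 61.6 in adenine rats (log2 fold change 6.06, SE 0.56). In sham rats it had 0.815, 1.07 and 1.57 and in UUO rats 26.3, 26.7 and 33.7, and it was upregulated there by 4.57 (SE 0.24, adjusted p = 1.9e-05 by limma). Of the 4 leading genes it was the one with the smallest difference between the models, 1.49 (SE 0.61). Msr1, the class A scavenger receptor of macrophages, stayed at low levels throughout. It was under 0.5 FPKM in sham rats 1 and 2, so it could enter the UUO test only with the UUO kidneys. Its FPKM was 0.738, 0.164 and 0.333 in control, 6.47, 3.75 and 6.88 in adenine, 0.291, 0.417 and 0.586 in sham and 2.23, 1.73 and 1.35 in UUO rats. The log2 fold change was 3.62 (SE 0.46) with adenine and 1.83 (SE 0.32) with UUO, so that Msr1 passed the p threshold in UUO kidneys (adjusted p = 0.00199 by limma), as 70.5% of tested entries did (59.4% in the adenine model), and fell short of the fold threshold. A pseudocount of 0.01, the log2 ratio of group means, FPKM rescaled to the same sum and leaving out sham rat 3 each took it just past that threshold, at 2.02 to 2.04.

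Lpl, the lipase that releases fatty acids from circulating triglyceride, was abundant in healthy kidneys. FPKM was 27.1, 47.5 and 31.1 in control and 345, 157 and 305 in adenine rats. The lowest adenine kidney stood at over 3 times the highest control kidney, and the log2 fold change was 2.89 (SE 0.34). FPKM was 52.3, 44.5 and 30.9 in sham and 80.9, 43.7 and 41.1 in UUO rats, where the groups overlapped and only UUO rat 1 stood above every sham kidney. The log2 fold change there was 0.34 (SE 0.30). With median-of-ratios scaling, which brings the median change of all genes close to 0, it was -0.26. Without adenine rat 1 and UUO rat 1, the kidneys with high adipocyte markers, it was 2.67 with adenine and 0.027 with UUO, and the difference between the models was 2.64 (SE 0.42) in place of 2.55 (SE 0.46).

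The fatty acid binding proteins parted from each other. Fabp4, the form of fat cells, capillaries and foam cells, had FPKM of 108, 48.6 and 22.6 in control and 1667, 463 and 648 in adenine rats, a log2 fold change of 4.01 (SE 0.67). The adenine group was above control without overlap. In sham rats it had 20.1, 20.8 and 3.66 and in UUO rats 334, 21.7 and 75.2, so the lowest UUO kidney lay just over the highest sham kidney. The log2 fold change of 2.81 (SE 1.08) missed the p threshold in UUO kidneys (adjusted p = 0.0523 by limma). UUO rat 1, the kidney with high adipocyte markers, held the highest value, and without it the log2 fold change was 1.79. Leaving out UUO rat 2, the lowest kidney, gave 3.76 with an adjusted p of 0.0158 by limma. Without adenine rat 1 and UUO rat 1 the log2 fold changes were 3.47 and 1.79, and the difference of 1.20 (SE 1.27) became 1.68 (SE 1.10).

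**Figure D2:**
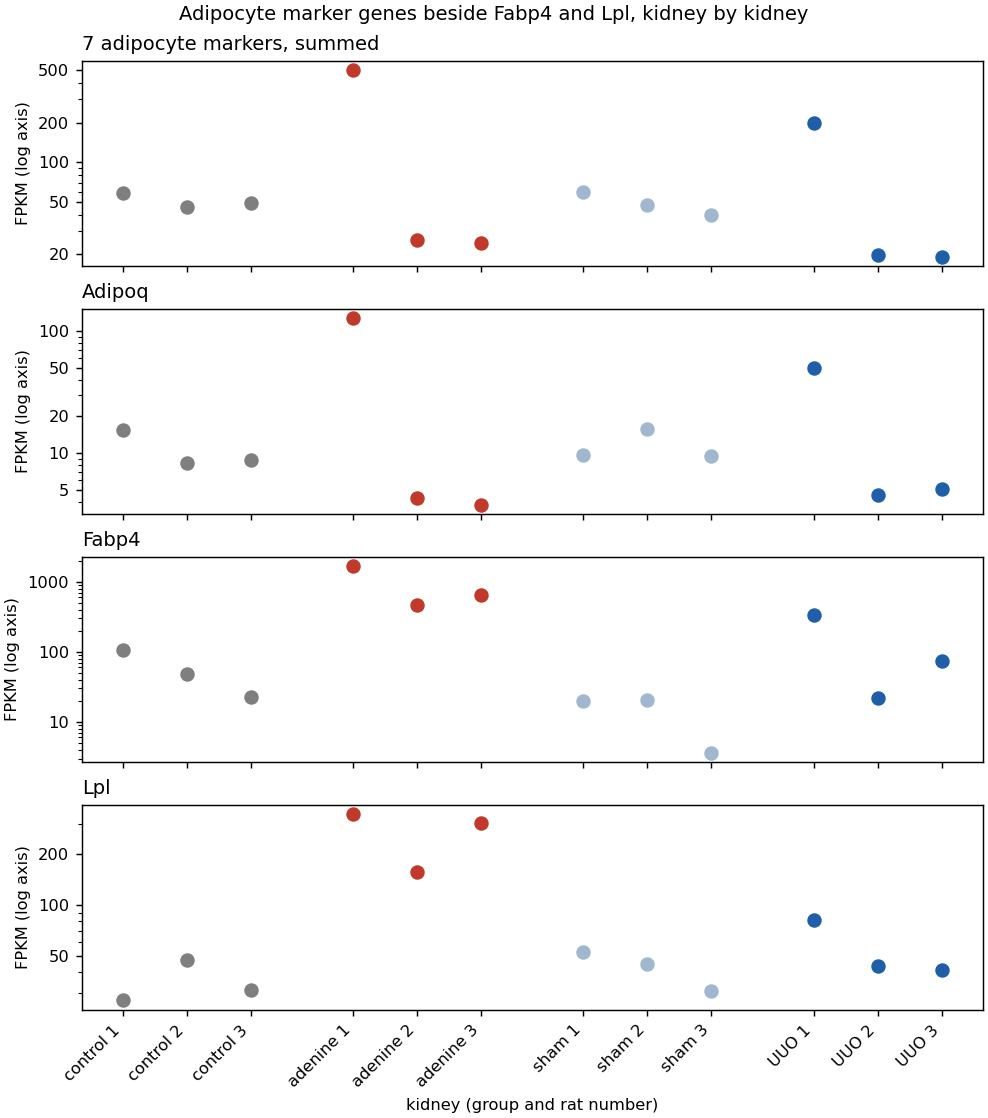
FPKM (log axis) of the 7 adipocyte markers summed, of Adipoq, of Fabp4 and of Lpl in each of the 12 kidneys. Adenine rat 1 and UUO rat 1 hold the highest value of their group in all 4 panels, with adipocyte sums of 498 and 200 FPKM. Adenine rats 2 and 3 lie above all control kidneys for Fabp4 and Lpl and below them for the adipocyte sum. Cidec alone held 20.4 to 37.1 FPKM of that sum in control kidneys, against 4.92 and 4.19 in adenine rats 2 and 3. The part of fat tissue in these levels was not tested.

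Fabp5, the form first described in skin and also made by macrophages, was higher in adenine than in control kidneys and not higher in UUO than in sham kidneys. FPKM was 38.4, 117 and 59.8 in control and 431, 276 and 325 in adenine rats (log2 fold change 2.39, SE 0.40). It was 74.0, 57.9 and 48.5 in sham and 49.3, 41.5 and 38.6 in UUO rats, 2 of which lay below every sham kidney. The log2 fold change of -0.46 (SE 0.17) had an adjusted p of 0.0450 by limma and was far from the fold threshold. After Gpnmb, Fabp5 had the largest difference between the models, 2.85 (SE 0.43).

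Atp6v0d2 was the exception. Its FPKM was 48.6, 25.6 and 54.8 in control and 49.8, 31.9 and 48.5 in adenine rats, groups that overlapped fully, with a log2 fold change of 0.059 (SE 0.32) whose sign turned with median-of-ratios scaling (-0.23). In sham rats it was 38.6, 42.4 and 50.8 and in UUO rats 16.1, 12.7 and 21.1. All UUO kidneys were below all sham kidneys, and the log2 fold change of -1.42 (SE 0.20, adjusted p = 0.000743 by limma) fell short of the fold threshold. With median-of-ratios scaling it was -2.01.

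**Figure D3:**
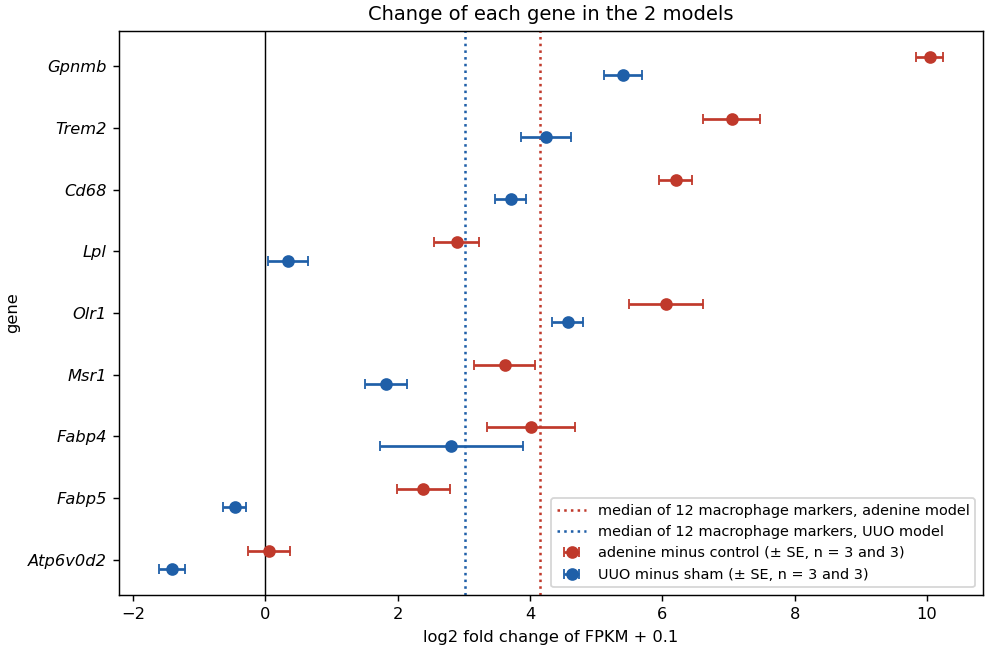
Log2 fold change of FPKM + 0.1 (horizontal axis) of each gene in the adenine model and the UUO model, with error bars for the standard error over 3 and 3 rats. The adenine value is the larger for every gene, from 1.20 more for Fabp4 to 4.63 more for Gpnmb, and the dotted lines mark the median of 12 macrophage markers in each model.

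Set side by side, the log2 fold change was larger in the adenine model for each of the 9 genes. The difference was at least 2 for 5 of them (Gpnmb, Fabp5, Trem2, Lpl and Cd68), while 1.46% of the 13486 genes tested in both tables had a difference that large in this direction. Since 3 of these genes chose the list, this count is a description. Over all genes the median difference was -0.28, toward UUO. Median-of-ratios scaling brought that median to 0.026, and 6 of the 9 genes then differed by at least 2, Msr1 having joined them. Without adenine rat 1 and UUO rat 1 the differences of the 9 genes ran from 1.35 for Olr1 and Atp6v0d2 to 4.78 for Gpnmb.

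FPKM is scaled by transcript length, so that levels can be ranked within a kidney. By mean FPKM the order in the adenine group was Gpnmb (1446), Fabp4 (926), Cd68 (388), Fabp5 (344), Lpl (269), Trem2 (119), Olr1 (57.7), Atp6v0d2 (43.4) and Msr1 (5.70). Fabp4, with an SD of 649, did not stand apart from its neighbours, Cd68, Fabp5 and Lpl overlapped each other, and so did Olr1 and Atp6v0d2, while Trem2 and Msr1 did not overlap their neighbours. In the UUO group the order was Fabp4 (144), Gpnmb (113), Cd68 (75.7), Lpl (55.2), Fabp5 (43.1), Olr1 (28.9), Trem2 (18.2), Atp6v0d2 (16.6) and Msr1 (1.77), and only Msr1 lay outside the range of every other gene. The first place of Fabp4 rested on UUO rat 1. The means of UUO rats 2 and 3 were 94.9 for Gpnmb, 68.8 for Cd68, 48.4 for Fabp4 and 42.4 for Lpl, which put Fabp4 after Gpnmb and Cd68. In adenine rats 2 and 3 it stayed next to Gpnmb, with means of 555 and 1373. In healthy kidneys Fabp5, Fabp4, Atp6v0d2 and Lpl were the abundant genes of the list, with means of 71.8, 59.7, 43.0 and 35.2 in control rats, and the other 5 had means between 0.411 and 5.04.

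Adenine rat 2 held the lowest adenine value of all 9 genes, and adenine rat 1 the highest of 8. In the UUO group, UUO rat 1 was highest for 7 of 9 genes. The macrophage markers were ordered otherwise. Of 12, 7 were lowest in adenine rat 2 and 5 in adenine rat 1, and 7 were highest in adenine rat 3 and 5 in adenine rat 1. The 9 genes are measured in the same kidneys, so their common order is not evidence from separate samples.

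Macrophage markers rose in both models. All 12 with an entry were upregulated DEGs in each (1, Itgam, was under 0.5 FPKM in every healthy kidney), beside 10.7% of tested entries upregulated with adenine and 13.2% with UUO. The median log2 fold change of the 12 was 4.15 and 3.02. Csf1r, the receptor for the macrophage growth factor M-CSF, went from FPKM of 6.55 ± 1.42 (SD, n = 3) in control to 108 ± 6.11 in adenine rats and from 9.45 ± 1.97 in sham to 74.3 ± 8.50 in UUO rats. Adgre1, the F4/80 antigen, had log2 fold changes of 2.37 (SE 0.21) and 2.90 (SE 0.37). Summed FPKM of the markers was 226 to 285 in control, 7206 to 13579 in adenine, 249 to 377 in sham and 2072 to 2989 in UUO kidneys. In bulk kidney RNA, more macrophages and more RNA of a gene per macrophage cannot be told apart. Set against the macrophage median of the same model, Gpnmb was higher by 5.90 with adenine and 2.39 with UUO, Trem2 by 2.90 and 1.22, Cd68 by 2.05 and 0.69, and Olr1 by 1.91 and 1.55 (log2). The other 5 genes lay below that median in both models, Lpl at -1.26 and -2.68, Fabp5 at -1.76 and -3.49, Msr1 at -0.53 and -1.20, Fabp4 at -0.14 and -0.21, and Atp6v0d2 at -4.09 and -4.44. With adenine rat 1 and UUO rat 1 left out, Fabp4 stood at -0.63 and -1.24 and Lpl at -1.43 and -3.01 against medians of 4.10 and 3.03. The integrin Itgam and the lysozyme Lyz2 changed more in the adenine model by the test of the difference (3.58, SE 0.41, adjusted p = 0.000119, and 2.90, SE 0.39, adjusted p = 0.000381), where 2.88% of the 13486 genes passed that test in either direction and 1.07% did so in this direction.

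Genes of the same pathways, none of them among the 9, were counted next. Of 131 tested genes in 10 pathway lists, 46 were upregulated and 5 downregulated in the adenine model, 38.9% against 15.7% of all tested entries. In the UUO model 36 of 129 were upregulated and 3 downregulated, 30.2% against 17.4%. Some of the upregulated genes, such as Trem1 with adenine and Apoc1 with UUO, were under 0.5 FPKM in every healthy kidney of their table. Such genes could enter the test only through the diseased group. Others, such as Mrc1 and Tnfrsf11a, reached 0.5 FPKM in some but not all healthy kidneys and also needed the diseased kidneys. The lists were drawn up with earlier results of these samples known, so these shares are no independent evidence of direction.

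Genes of TREM2 signalling rose in both models. Upregulated DEGs numbered 6 of 7 tested genes with adenine and 4 of 6 with UUO. Trem1, 1 of the 6, was under 0.5 FPKM in every control kidney and could enter the test only through the adenine group. Hcst, 1 of the 4 with UUO, was under 0.5 FPKM in sham rat 1 and needed the UUO kidneys. Tyrobp, the adaptor of Trem2, rose from 17.0 ± 4.35 to 207 ± 45.8 FPKM (log2 fold change 3.60, SE 0.24, adjusted p = 6.83e-05) and from 14.9 ± 1.75 to 99.9 ± 17.8 (2.72, SE 0.16, adjusted p = 2.53e-05). The kinase Syk rose by 3.67 (SE 0.16) in the adenine model, and its 1.92 (SE 0.18) in the UUO model was under the fold threshold. Vav1, an exchange factor downstream of Syk, rose by 4.32 (SE 0.21) and 3.05 (SE 0.21). Syk and Vav1 changed more with adenine by 1.75 and 1.27 (adjusted p of 0.000421 and 0.00797 by the test of the difference), under its fold threshold.

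Among 12 lipid-associated macrophage genes, 9 were upregulated with adenine and 8 with UUO, with median log2 fold changes of 4.54 and 3.13. By the test of the difference 6 of the 12 (Lgals3, Itgax, Clec7a, Capg, Mmp12 and Igf1) rose more in the adenine model. Without adenine rat 1 and UUO rat 1, 4 of the 6 still passed, Itgax and Capg having dropped out, and Itgax also dropped out without adenine rat 1 alone. Igf1 did not pass without sham rat 1, UUO rat 2 or UUO rat 3. Capg passed in 8 of 22 alternatives and was lost when any 1 of control rats 1 and 3, the adenine rats, sham rats 1 and 2 or UUO rats 1 and 3 was left out. The macrophage elastase Mmp12 had FPKM of 0.496, 0.195 and 0.339 in control and 229, 164 and 241 in adenine rats, and 0.312, 0.833 and 0.752 in sham and 28.5, 25.4 and 12.2 in UUO rats. All diseased kidneys were far above their controls, the log2 fold changes were 8.94 (SE 0.28) and 4.91 (SE 0.43), and the difference was 4.02 (SE 0.51, adjusted p = 0.000282). Mmp12 was under 0.5 FPKM in every control kidney, so it could enter the adenine test only through the adenine group. It was also under 0.5 FPKM in sham rat 1 and needed the UUO kidneys to enter the UUO test. Of the 13486 genes, Mmp12 was also the one whose pair of log2 fold changes lay nearest to that of Gpnmb, at a Euclidean distance of 1.22, followed by LOC100911545 at 1.65 and A2m, the protease inhibitor alpha-2-macroglobulin, at 1.86. The galectin Lgals3 rose to 1006 ± 260 FPKM in adenine and 193 ± 52.9 in UUO rats, from 15.8 ± 7.93 and 16.5 ± 1.71. Spp1, the secreted phosphoprotein osteopontin, reached 9900 ± 455 FPKM in adenine and 9115 ± 1560 in UUO rats, and its difference of 1.36 (SE 0.96) did not pass (adjusted p = 0.309).

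Other scavenger receptors rose in both models, 9 of 11 tested genes in each, with medians of 2.76 and 2.63. Of the 11, 3 with adenine and 2 with UUO, Cd163 and Scara5 in both, were under 0.5 FPKM in every kidney of the healthy group and so could enter the test only through the diseased group. Cd163, the haemoglobin scavenger receptor of macrophages, had FPKM of 5.63, 9.31 and 9.15 in adenine and 3.83, 1.36 and 1.82 in UUO rats, against at most 0.0481 in control and 0.0348 in sham rats. The mannose receptor Mrc1 rose from 0.396 ± 0.108 to 14.4 ± 4.06 FPKM with adenine and from 0.515 ± 0.0990 to 10.9 ± 3.73 with UUO. Mrc1 and Stab1 reached 0.5 FPKM in some but not all control and sham kidneys, and Scara3 in some but not all sham kidneys. Those genes too could enter the test only with the diseased kidneys. Scara5, a ferritin receptor, changed more in the UUO model, with a log2 fold change of 2.71 (SE 0.44) in the adenine and 5.10 (SE 0.52) in the UUO model (difference -2.39, SE 0.68, adjusted p = 0.0199). Without UUO rat 1 that difference did not pass the test.

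Cholesterol handling was represented by genes of export, ester storage and lysosomal release. Of 12 genes of cholesterol efflux and esterification, 7 were upregulated with adenine, and 5 of 13 with UUO, with medians of 2.58 and 1.37. Apoc1, 1 of the 5, stood at 0.0001 FPKM in every sham kidney and could enter the test only through the UUO group. Apoe, the apolipoprotein that carries cholesterol out of macrophages, had FPKM of 47.3, 38.6 and 28.7 in control and 2700, 1748 and 2291 in adenine rats, and 81.4, 52.8 and 122 in sham and 1150, 1043 and 613 in UUO rats. All diseased kidneys were above their controls, with log2 fold changes of 5.88 (SE 0.23) and 3.48 (SE 0.35) and a difference of 2.40 (SE 0.42, adjusted p = 0.0018). Lipa, the lysosomal acid lipase that frees cholesterol and fatty acids, rose by 3.04 (SE 0.19) in the adenine model, and its 1.02 (SE 0.07) in the UUO model was under the fold threshold (difference 2.02, SE 0.20, adjusted p = 6.16e-05). That difference lay at the threshold and did not pass without control rat 2, adenine rat 1, adenine rat 3 or UUO rat 3. The cholesterol exporter Abca1 rose by 3.24 (SE 0.19) and 3.11 (SE 0.15), and the difference of 0.13 (SE 0.25) did not pass the test (adjusted p = 0.723).

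Genes of fatty acid uptake and lipolysis had medians of 0.41 over 15 tested genes in the adenine and 0.74 over 16 in the UUO model. In the adenine model Angptl4 and Lrp1 were upregulated and Slc27a2 downregulated, and in the UUO model Gpihbp1 and Slc27a3 joined those upregulated. Of all tested entries, 10.7% were upregulated and 5.03% downregulated with adenine, and 13.2% and 4.21% with UUO. Gpihbp1 was under 0.5 FPKM in every sham kidney and could enter the test only through the UUO group. Angptl4, a secreted inhibitor of Lpl, had FPKM of 3.62, 1.23 and 9.51 in control, 39.7, 23.0 and 23.6 in adenine, 14.3, 0.662 and 0.871 in sham and 24.2, 10.5 and 19.5 in UUO rats. The sham and UUO groups overlapped through sham rat 1. Gpihbp1, which holds Lpl at the capillary wall, had FPKM of 14.1 in UUO rat 1 and 1.77 and 1.14 in the other UUO rats, and 19.7 in adenine rat 1 against 0.192 and 0.0594, the order of the adipocyte markers. Slc27a2, a fatty acid transporter of the proximal tubule, fell by 3.10 (SE 0.48) and 2.44 (SE 0.21) on the log2 scale.

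Lipid droplet genes were mixed, with 2 of 14 tested upregulated in the adenine model (Plin2 and Hilpda) and 1 up and 1 down of 13 in the UUO model (Hilpda and Cidec). Without adenine rat 2, 4 were DEGs in the adenine model, and without sham rat 3, 1 was a DEG in the UUO model. Plin2, the droplet coat protein of most cells, rose from 20.1 ± 5.89 to 96.5 ± 4.82 FPKM with adenine (log2 fold change 2.30, SE 0.20). With UUO it went from 27.7 ± 6.64 to 78.5 ± 0.453, a log2 fold change of 1.53 (SE 0.16) under the fold threshold. Of 8 PPAR and RXR regulators, 1 was a DEG, in the UUO model, where 17.4% of all tested entries were DEGs. It was Pparg, the nuclear receptor that induces Cd36, Fabp4 and Lpl (log2 fold change 2.05, SE 0.22, adjusted p = 0.000243 by limma). With median-of-ratios scaling, quantile normalization or a pseudocount of 1, or without sham rat 3 or UUO rat 1, it was under the fold threshold. In the adenine model Pparg had FPKM of 13.3 in adenine rat 1 and 2.05 and 2.23 in the others, against 1.48, 1.77 and 0.725 in control rats.

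**Figure D4:**
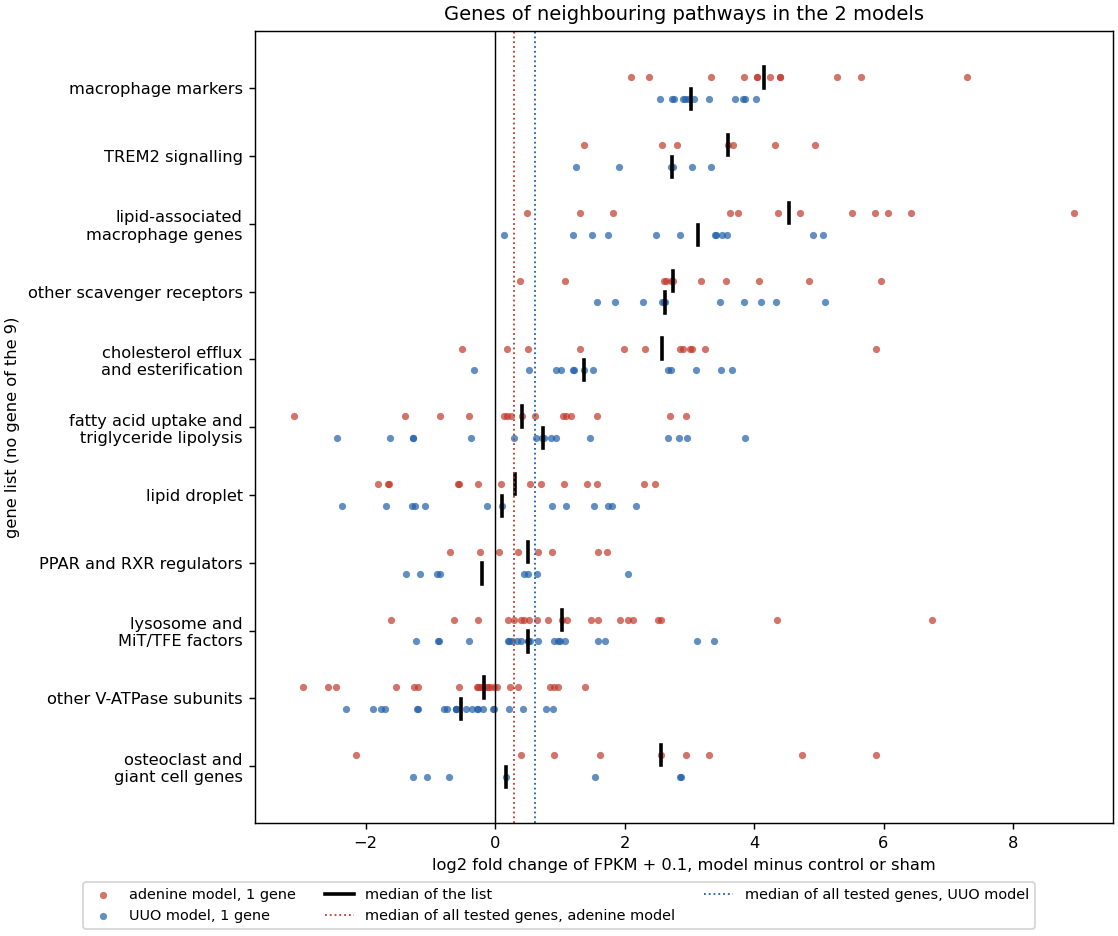
Log2 fold change of FPKM + 0.1 (horizontal axis) of each tested gene of 10 pathway lists and of the macrophage markers, 1 point per gene and model, with the list median as a black bar. The TREM2, lipid-associated macrophage and macrophage marker lists lie to the right of the medians of all tested genes (dotted) in both models, and the lists of fatty acid uptake, lipid droplet, PPAR and V-ATPase genes lie around them or to their left.

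The lysosome list, which includes the MiT/TFE factors, had 6 upregulated genes of 21 with adenine and 2 with UUO, where 10.7% and 13.2% of all tested entries were upregulated. Its medians were 1.03 and 0.51, beside 0.30 and 0.62 over all entries, so that in the UUO model neither the count nor the median stood above the background. The collagen-degrading protease Ctsk had FPKM of 5.95, 8.51 and 5.94 in control, 1101, 512 and 693 in adenine, 4.39, 7.97 and 7.45 in sham and 72.3, 52.1 and 47.1 in UUO rats. Its log2 fold changes were 6.75 (SE 0.29) and 3.12 (SE 0.26), and Ctsk was the 1 gene of the list to pass the test of the difference (3.63, SE 0.39, adjusted p = 9.58e-05). Ctss, a protease of antigen-presenting cells, rose by 4.35 (SE 0.14) and 3.38 (SE 0.17). With median-of-ratios scaling the median of the list was 0.74 and -0.087.

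Of the 10 pathway lists, that of osteoclast and giant cell genes had the medians furthest apart, 2.56 in the adenine and 0.17 in the UUO model, although 9 genes were tested in the first and 7 in the second. With adenine, 5 were upregulated and 1 downregulated, and with UUO 2 were upregulated. Among those upregulated, Itgb3 in both models and Ocstamp in the adenine model were under 0.5 FPKM in every healthy kidney. They could enter the test only through the diseased group. Tnfrsf11a, upregulated in both models, reached 0.5 FPKM in some but not all healthy kidneys and needed the diseased ones too. Ocstamp, a membrane protein needed for the fusion of osteoclasts and macrophages, was listed at 0.257, 0 and 0 in control and at 14.2, 5.53 and 8.97 FPKM in adenine rats. In the sham and UUO table it did not exceed 0.205 in any kidney and was not tested. Mmp9, a gelatinase of osteoclasts, neutrophils and macrophages, had FPKM of 8.17, 1.04 and 6.76 in control and 192, 45.7 and 140 in adenine rats, and 2.73, 5.15 and 9.29 in sham and 1.95, 2.48 and 1.77 in UUO rats. Adenine kidneys were all above control, and UUO kidneys were all below sham. The log2 fold changes were 4.74 (SE 0.86, adjusted p = 0.00335) and -1.27 (SE 0.42, adjusted p = 0.0306, under the fold threshold), and their difference was 6.01 (SE 0.96, adjusted p = 0.00106). Of 7 neutrophil markers, 3 could be tested with adenine and 4 with UUO, 2 of them in each model only through the diseased kidneys, since they were under 0.5 FPKM in every healthy one. S100a9, a calcium-binding protein of neutrophils, had FPKM of 0.593 to 1.03 in control and 4.82 to 15.6 in adenine kidneys, while Elane did not exceed 0.0550 in any kidney of that table. The 7 markers summed to 15.1 to 26.6 FPKM in adenine and 6.91 to 38.0 in UUO kidneys, and their part in the change of Mmp9 was not tested.

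For Atp6v0d2 the other subunits of the same pump give the setting. Of 22 tested V-ATPase subunits, 3 were downregulated in the adenine model (Atp6v1b1, Atp6v1c2 and Atp6v1g3) and 1 in the UUO model (Atp6v0a4), where 5.03% and 4.21% of all tested entries were downregulated. The medians were -0.17 and -0.52. With median-of-ratios scaling or quantile normalization 4 were DEGs in the UUO model, and 2 were when sham rat 1, sham rat 3, UUO rat 1 or UUO rat 3 was left out. The 4 subunits named are known from intercalated cells. Atp6v1b1 had FPKM of 73.1, 28.4 and 98.4 in control, 12.6, 10.8 and 6.81 in adenine, 43.8, 50.4 and 63.5 in sham and 13.6, 11.5 and 17.6 in UUO rats. It was lower in every diseased kidney, with log2 fold changes of -2.58 (SE 0.47, adjusted p = 0.00347) and -1.88 (SE 0.20). The 7 intercalated cell markers, which include 3 of these subunits, summed to 296 to 694 FPKM in control, 81.3 to 157 in adenine, 566 to 605 in sham and 152 to 214 in UUO kidneys. Slc4a1, the anion exchanger of acid-secreting intercalated cells, fell by 3.89 (SE 0.48) and 2.85 (SE 0.26). The level of Atp6v0d2 in adenine kidneys, 43.4 ± 9.94 against 43.0 ± 15.4 in control, thus stood beside markers that were lower, and in UUO kidneys both were lower. Whether macrophages held part of the transcript was not tested.

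Genes nearest to Lpl by their pair of log2 fold changes were Frrs1, a ferric reductase (distance 0.17), Mreg, melanoregulin (0.20), and Grk3, a receptor kinase (0.24). Frrs1 had log2 fold changes of 2.72 and 0.36, and Mreg of 3.09 and 0.36. Endothelial markers, which bear on Fabp4 and on the site where Lpl acts, had medians of -0.57 in the adenine and 0.69 in the UUO model. With adenine, 5 of 9 tested were lower and 2 higher by adjusted p alone, and with UUO 5 of 8 were higher. By adjusted p alone, 59.4% of all tested entries passed with adenine and 70.5% with UUO, in either direction. The UUO count thus did not stand above the background. Summed FPKM was 141 to 181 in control and 73.2 to 94.3 in adenine kidneys, and 146 to 162 in sham and 248 to 292 in UUO kidneys. Emcn, a sialomucin of capillaries and veins, had log2 fold changes of -1.79 (SE 0.18) and 0.27 (SE 0.10). The adhesion molecule Cdh5 had log2 fold changes of 0.84 (SE 0.24, under the fold threshold) and 2.48 (SE 0.26, adjusted p = 0.000201), a difference of -1.64 (SE 0.35, adjusted p = 0.00492). Flt1, a VEGF receptor, went the other way, with 1.08 (SE 0.19) and 0.35 (SE 0.19). The part of endothelium in the level of either gene was not tested.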

How the data were processed

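RNA of 12 rat kidneys was sequenced from poly(A) libraries, and groups were taken from the sample labels. The authors trimmed the reads, mapped and merged them, and deposited gene levels as FPKM in 2 tables. Their processing notes name cutadapt 1.9, HISAT2 2.0.4, StringTie 1.3.4d, edgeR and DESeq2, and the genome build is not given in the sources used here. The depth is unknown. FPKM summed to 564972 to 582725 in control, 468389 to 487770 in adenine, 619664 to 630244 in sham and 528811 to 539011 in UUO samples. The lowest value was 0 in one table and 0.0001 in the other.

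Each table was fitted alone with limma 3.58.1 (lmFit, eBayes with a trend) in R 4.3.3 on log2(FPKM + 0.1), for entries that reached 0.5 FPKM in 3 or more of the 6 samples. DEGs passed 0.05 after Benjamini-Hochberg adjustment and changed by 2 or more on the log2 scale. The difference between models was the difference of log2 fold changes over the root of the summed squared SE, read as t with the degrees of freedom of both fits added, and adjusted over 13486 genes listed once and tested in both tables, with the same thresholds. Other steps used Python 3.11.15, pandas 2.3.3, numpy 2.4.6, scipy 1.17.1 and matplotlib 3.10.9. The scripts were tested on simulated data.

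The 10 genes and all lists were chosen with earlier results of these data known. From each list the text names up to 4 genes with the largest change in either model, the first 2 of a marker list, the gene with the largest difference that passes, the 3 genes nearest to Gpnmb and to Lpl, and all genes of a list with 5 or fewer DEGs. Igf1, Itgax, Capg and the other listed genes that passed the test of the difference were named after their values were seen, and so were the kidneys set apart by adipocyte markers. The same replicate numbers occur in each group and do not pair the rats. Alternatives changed the pseudocount (1 or 0.01), the filter (none, or FPKM of 1), the scaling (median of ratios, quantile, a common sum of FPKM) or the fit: eBayes without the trend, a replicate block, the log2 ratio of group means, no fold threshold, changes relative to the macrophage median, and each sample left out. Of the 10 genes, promoters of Gpnmb, Cd68, Trem2, Olr1 and Cd36 were searched for motifs, and those of the other genes were not. Protein sequences were not used here.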

Additional observations from a re-analysis of the deposited data

Results flagged for a closer look

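Among the listed genes outside the 9, 20 changed differently in the adenine and UUO models by the test of the difference, 12 with the larger log2 fold change in the adenine model and 8 with the larger one in the UUO model. They were 20 of 165 listed genes tested, or 7.27% toward adenine and 4.85% toward UUO, where 1.07% and 1.82% of all 13486 genes passed, and the lists were drawn up with earlier results of these samples known. Without adenine rat 1 and UUO rat 1 together, 15 of the 20 still passed (Itgax, Capg, Lipa, Scara5 and Slc26a4 did not), and 10 passed under every alternative in which they were tested. Differences are given below as adenine minus UUO on the log2 scale.

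On the adenine side stood the macrophage and foam cell genes Mmp12 (4.02), Itgam (3.58), Lyz2 (2.90), Lgals3 (2.56), Clec7a (2.47), Apoe (2.40), Igf1 (2.25), Itgax (2.22), Capg (2.11) and Lipa (2.02), the protease Ctsk (3.63) and the gelatinase Mmp9 (6.01). Capg was the least firm of them and passed under 8 of 22 alternatives. Itgax did not pass without adenine rat 1, where its difference was 1.96. Mmp12 in the adenine model and Itgam in both models were under 0.5 FPKM in every healthy kidney. They could enter those tests only through the diseased group. Mmp12 also needed the UUO kidneys to enter the UUO test.

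On the UUO side stood the uroplakins Upk2 (-6.75) and Upk1a (-4.46), proteins of the urothelium, the scavenger receptors Scara5 (-2.39) and Scarf2 (-2.20), the endothelial genes Plvap (-2.17), Egfl7 (-2.13) and Emcn (-2.06), and Slc26a4 (-2.71), the pendrin of base-secreting intercalated cells. Scarf2, Emcn and Egfl7 did not pass with median-of-ratios scaling or quantile normalization, and Plvap and Slc26a4 did not pass with median-of-ratios scaling. Leaving out 1 rat also lost Emcn (adenine rat 3), Egfl7 (control rat 3 or UUO rat 1), Plvap (control rat 2) and Slc26a4 (control rat 1 or 3, adenine rat 1 or 3). Slc26a4 was lower in both models, by log2 fold changes of -3.67 with adenine and -0.96 with UUO. Upk2 and Scara5 were under 0.5 FPKM in every sham kidney and could enter the UUO test only through the UUO group. Upk1a was under 0.5 FPKM in the lowest sham kidney and also needed the UUO kidneys to enter.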

How the results depend on the processing

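Median-of-ratios scaling brought the median change of the tested entries to 0.0056 with adenine and 0.023 with UUO, from 0.30 and 0.62, and the upregulated share of the DEGs to 57.0% and 55.4%, from 68.0% and 75.8%. The median macrophage marker change was then 3.85 and 2.42, with quantile normalization 2.69 in the UUO model, and with FPKM rescaled to the same sum 4.41 in the adenine model. Of the pathway genes, median-of-ratios scaling gave 44 up and 6 down with adenine and 29 up and 8 down with UUO.

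A pseudocount of 1 gave 1320, 1465 and 207 DEGs in the adenine model, the UUO model and the difference, in place of 2360, 2613 and 389. No filter gave 630 for the difference. Without the fold threshold there were 8934, 10606 and 3640, and 97 and 113 pathway genes. Atp6v0d2, between -0.28 and 0.27 in adenine kidneys when 1 rat was left out, changed sign with median-of-ratios scaling (-0.23) and without control rat 2 (-0.28), adenine rat 1 (-0.054) or adenine rat 3 (-0.034), and the same scaling turned Lpl in UUO kidneys (-0.26). Relative to the macrophage median, Lpl, Msr1, Fabp4, Fabp5 and Atp6v0d2 turned to -1.26, -0.53, -0.14, -1.76 and -4.09 in the adenine model, and Lpl, Msr1 and Fabp4 to -2.68, -1.20 and -0.21 in the UUO model.

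Deviations of rats with the same number correlated at -0.12 to -0.049 in the adenine and at 0.050 to 0.11 in the UUO model. Rats with different numbers gave -0.044 to 0.11 and -0.078 to 0.016. In the UUO model the same-number values were thus the higher ones, though all were small. With the replicate block, Fabp4 passed in the UUO model (2.81, adjusted p = 0.0447), as it did with FPKM rescaled to the same sum (3.03).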

Other observations

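Markers of the urothelium and of stratified epithelium, which lie outside the phagocyte genes, summed to FPKM of 168 to 211 in UUO kidneys, against 0.675 to 2.98 in sham, 0.800 to 9.02 in control and 1.22 to 7.84 in adenine kidneys. Of the 8 markers, 7 were under 0.5 FPKM in every sham kidney and so entered the UUO test only through the UUO group, and no count or median over the 8 is given. Krt15, a keratin of basal cells, was one of these, at 0.0001 to 0.181 FPKM in sham and 25.3 to 63.8 in UUO kidneys. Upk1a, a urothelial uroplakin, reached 0.440 to 1.57 FPKM in sham and 9.84 to 32.1 in UUO kidneys. Its log2 fold change was 4.59 (SE 0.57, adjusted p = 0.000447 by limma). The lowest sham kidney was under 0.5 FPKM, so Upk1a too could enter that test only with the UUO kidneys.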
